A study of Sus scrofa with 36 samples.

Results

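Chemokines, interleukins and their receptors were examined in the adrenal glands of heat-stressed and control pigs of 3 breeds. A probe belonged to the set when its deposited gene name was a CC or CXC chemokine (CCL, CXCL), one of their receptors (CCR, CXCR), a numbered interleukin or an interleukin receptor chain. The rule found 151 of the 60305 probes of the array, which stand for 83 genes. Of these genes, 62 had a probe in the authors' normalized table and form the set described here, each measured by its probe with the highest mean. All 62 passed the filter on low signals and were among the 45943 probes tested.

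The 21 other genes had no probe in that table: CCL28, CCR3, CCR4, CCR6, CXCL11, IL2, IL4, IL9, IL12A, IL12B, IL13, IL17A, IL19, IL21, IL22, IL2RA, IL7R, IL18R1, IL23RA, IL27RA and IL31RA. Of these, 19 were well above background on at most 3 of the 36 arrays, among them the T cell cytokines IL2, IL4, IL13 and IL17A. The other 2, CCR4 and CXCL11, were well above background on 19 arrays each, and their probes had HS minus TN differences of -0.13 and 0.11 on the log2 scale (adjusted p of 0.663 and 0.859 in limma). The filter was open to each gene through either temperature group, and a count over the 62 is not a count over the whole family.

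Each array held the RNA of the adrenal glands of 1 castrated male pig, labelled with 1 dye. There were 6 pigs in each of 6 groups: Creole, Large White and Large White x Creole cross pigs, each in thermoneutral (TN) and heat stress (HS) conditions. TN pigs were kept at 24 °C, and HS pigs were moved from that temperature to 32 °C according to the growth protocol and to 30 °C according to the sample labels, for 4 to 5 days. The pigs had entered the climatic room at 11 weeks of age, in blocks of littermates that the labels do not give. Slaughter of the TN pigs came first and that of the HS pigs followed the exposure, so temperature and day of slaughter cannot be told apart. Between 42436 and 48060 probes were well above background on an array, and pairs of arrays correlated between 0.982 and 0.996. Among the defining markers of the gland, 9 of 10 genes of the cortex and 6 of 8 of the medulla were tested, while CYP11B1 and TH, among others, had no probe named for them.

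The pigs were also set against their labels through the 200 probes that responded most in the other 35 pigs. The mean displacement toward the HS side, on the log2 scale, lay between -0.47 and 0.08 in the TN pigs and between -0.21 and 0.32 in the HS pigs. On this measure 2 HS pigs (Large White HS replicate 5 and Creole HS replicate 6) lay on the TN side and 3 TN pigs (Creole TN replicate 4, Large White TN replicate 4 and cross TN replicate 6) on the HS side. The counts of members past the threshold are therefore also given without the 2 HS pigs and without all 5. Because these pigs were picked by their response to temperature, leaving out all 5 sets the temperature groups farther apart.

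Chemokines are small secreted proteins that draw leukocytes along a gradient through G protein-coupled receptors; CC and CXC ligands are told apart by the spacing of their first cysteines. Interleukins act on leukocytes and on many tissue cells through receptor chains that are often shared, such as the common gamma chain IL2RG. In the adrenal gland, resident macrophages and the steroid-producing cells themselves make and sense IL-1 and IL-6, and these cytokines are known to stimulate the hypothalamus, pituitary and adrenal axis. In whole tissue, fewer cells of a type and less RNA per cell cannot be told apart.

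Each value is the brightness of a spot carrying a 60-base oligonucleotide, so the sequence decides which transcript is read. The probes of the 8 members that passed the threshold in a breed comparison are shown, with those of CXCL9 and IL27, on which the differences among pigs turn. They were read from the scanner files, 5′ to 3′, and the capitals mark AATAAA, the usual polyadenylation signal. AATAAA occurred in 13 of the 62 member probes (21.0%) and in 10.3% of all probes of the array, and the members' probes held between 35% and 55% G or C.
IL1R1: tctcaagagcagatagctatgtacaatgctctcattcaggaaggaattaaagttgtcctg
IL4R: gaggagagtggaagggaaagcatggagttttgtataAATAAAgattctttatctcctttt
IL2RG: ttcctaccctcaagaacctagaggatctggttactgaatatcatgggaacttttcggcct
CCL27: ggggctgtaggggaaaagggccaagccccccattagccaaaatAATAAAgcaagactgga
CXCR6: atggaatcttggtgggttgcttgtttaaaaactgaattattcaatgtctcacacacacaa
CCR1: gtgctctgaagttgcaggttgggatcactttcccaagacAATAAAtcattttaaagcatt
IL7: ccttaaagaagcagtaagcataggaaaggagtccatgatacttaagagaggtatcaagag
CXCR2: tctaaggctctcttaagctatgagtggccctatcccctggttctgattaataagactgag
CXCL9: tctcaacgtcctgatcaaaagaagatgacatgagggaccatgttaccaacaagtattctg
IL27: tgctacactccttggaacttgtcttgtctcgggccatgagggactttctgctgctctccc

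The effect of temperature was the first comparison. None of the 62 members was differentially expressed between HS and TN conditions: 0 passed an FDR of 0.05 in limma with Benjamini-Hochberg adjustment over all 45943 probes, against 407 of all probes (0.886%). At an unadjusted p under 0.05 there were 3 members, against 13.4% of all probes. The differences were small, with a median of -0.02 on the log2 scale, and 26 members had a higher and 36 a lower mean in HS than in TN. The count stayed at 0 without the 2 HS pigs named above and without all 5 pigs. Within the breeds, too, 0 members passed the FDR in the Creole, Large White and cross pigs, against 0, 0.0109% and 0% of all probes.

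The data bound the size of a difference in log2 intensity, less tightly for the members than for the array as a whole. No background was subtracted from the intensities, which compresses the log2 differences of dim probes. For dim members such as IL6, IL1B and IL8 the intervals below need not bound the change in RNA. The 95% interval of the HS minus TN difference lay inside 0.25 on the log2 scale, up or down, for 34 of the 62 members and inside 0.5 for 56. These shares, 54.8% and 90.3%, were lower than the 74.0% and 95.8% of all probes tested. The remaining 6 were CCL20, CXCL9, CXCL10, CXCR7, IL13RA2 and IL27, and their intervals lay inside 1. For the classical inflammatory cytokines the intervals ran from -0.15 to 0.12 for IL6, from -0.28 to 0.13 for IL1B, and from -0.12 to 0.09 for IL8, a strong neutrophil chemoattractant. These are the brightest probes of each gene. IL6 had 3 other probes tested, with differences of -0.10, -0.13 and -0.15 and intervals from -0.21 to 0.02, from -0.25 to -0.01 and from -0.24 to -0.06. The last of them was well above background on 13 arrays, 9 of TN and 4 of HS pigs. It therefore passed the filter through the TN pigs alone, the group in which it was higher. It had an unadjusted p of 0.00141 and an adjusted p of 0.0801 in limma. The other 3 probes of IL8 were well above background on 0, 1 and 12 arrays and were not tested.

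**Figure D1:**
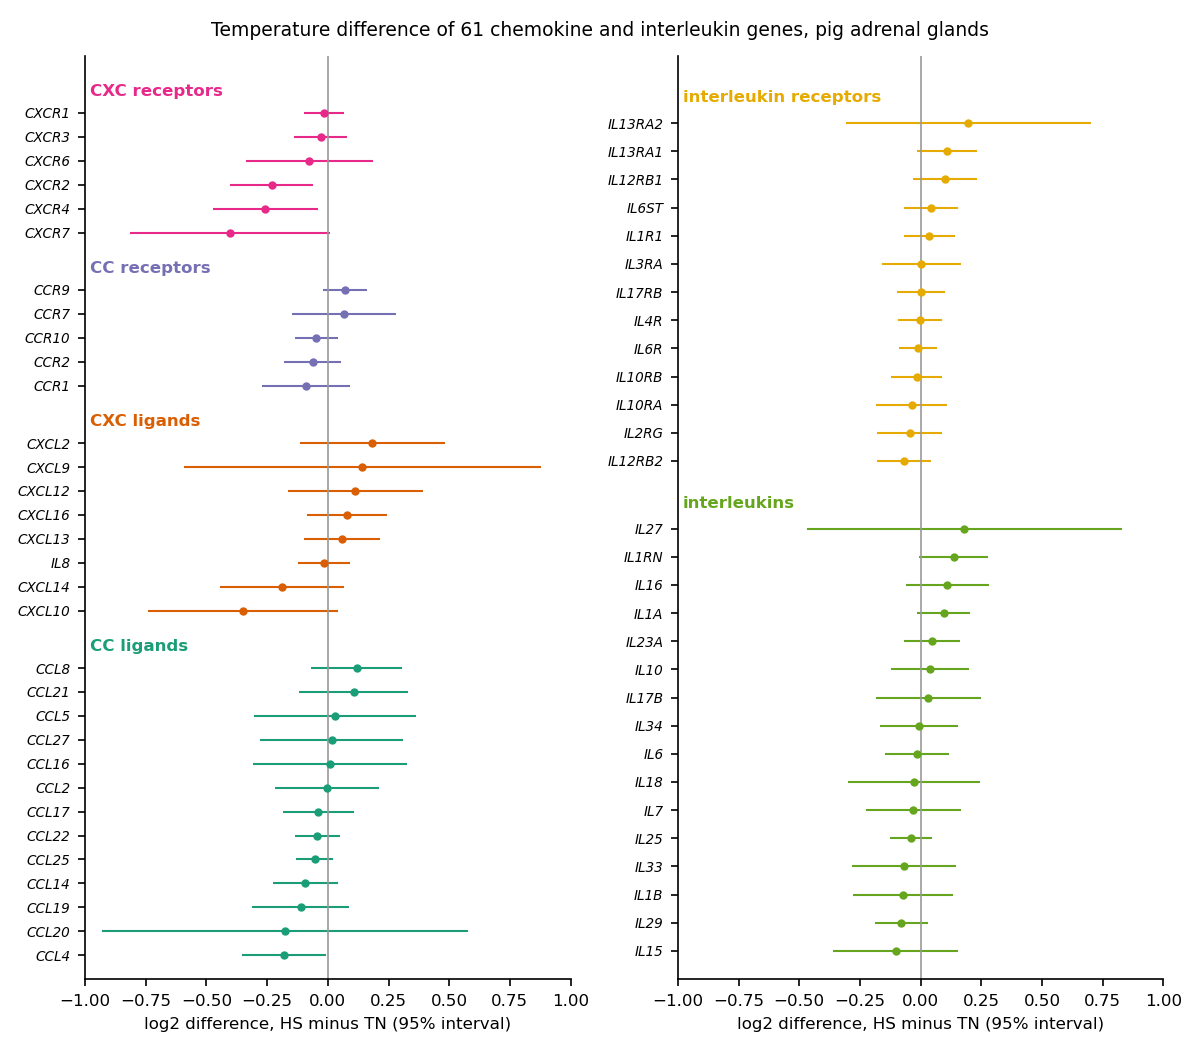
Difference between HS and TN for 61 of the 62 members on the log2 scale (points) with its 95% interval (lines), grouped by role. The 6 CXC receptors all lie at or left of 0, and the widest intervals are those of CCL20, CXCL9 and IL27.

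The 5 members with the lowest p for temperature were CXCR2, CXCR4, CCL4, CXCR7 and IL1RN, of which 3 are CXC receptors. CXCR2, the receptor through which IL-8 recruits neutrophils, ranged from 7.14 to 8.15 in TN pigs (median 7.60, n = 18) and from 6.85 to 7.81 in HS pigs (median 7.42, n = 18), on the log2 intensity scale. The groups overlapped. The value was under the mean of same-breed TN pigs in 16 of the 18 HS pigs. Such counts are given here for members chosen by their p on the same values, so they are no separate support. Its difference was -0.23 ± 0.08 (SE), with an unadjusted p of 0.00887 and an adjusted p of 0.177 in limma, and it lay between -0.26 and -0.01 within the 4 slides of 8 arrays, each of which held all 6 groups in unequal numbers. The other slide held 2 Large White TN, 1 Creole HS and 1 cross HS pig, so breed and temperature cannot be told apart on it and its values are left out. CXCR4, the receptor of CXCL12 on leukocytes and progenitor cells, ranged from 10.49 to 11.66 in TN and from 10.09 to 11.48 in HS pigs, with medians of 10.95 and 10.61. Its difference was -0.26 ± 0.11 (SE) with an adjusted p of 0.255 in limma, 14 of 18 HS pigs were under their breed's TN mean, and its value was -0.33, -0.51, 0.03 and 0.00 on these 4 slides. CXCR7, a scavenging receptor of CXCL12 that is also called ACKR3, had a difference of -0.40 ± 0.20 (SE) and an adjusted p of 0.385 in limma. It spread widely, from 6.17 to 8.76 in TN and from 5.89 to 8.53 in HS pigs, and its second probe gave -0.43 with an adjusted p of 0.308 in limma.

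CXCR1, CXCR3 and CXCR6 had differences between -0.02 and -0.08, so that all 6 CXC receptors had a lower mean in HS, with a median of -0.15 beside 0.00 over all probes tested. Of the 8 CXC ligands 5 had a higher and 3 a lower mean in HS, of the 13 CC ligands 5 a higher and 8 a lower one, and of the 6 CC receptors 2 a higher and 4 a lower one. Of the 6 tested neutrophil markers 1 fell in HS pigs, beside 0.496% of all probes. It was S100A8, a calcium-binding protein abundant in neutrophils, which fell by 0.71 ± 0.15 (SE) on the log2 scale with an adjusted p of 0.0186 in limma. S100A12 was at -0.53 with an adjusted p of 0.0857, and S100A9, ELANE, PGLYRP1 and MMP9 lay between -0.18 and -0.06 with adjusted p of 0.641 or more in limma, while MPO was not among the probes tested. The mean log2 level of the list lay between 8.34 and 9.41 in TN pigs and between 7.87 and 8.92 in HS pigs, with a median difference over its genes of -0.13. Other marker lists were shifted as much, with 0 calls each. The median difference was -0.21 for the 6 genes of the medulla (level 13.35 to 14.29 in TN and 13.17 to 14.00 in HS pigs) and -0.13 for the 11 macrophage genes (10.24 to 11.19 and 10.07 to 11.17). PNMT, which makes adrenaline, was at -0.35 (adjusted p of 0.0797 in limma) and the complement gene C1QA at -0.37 (0.124). The medians were 0.05, -0.01 and -0.03 for the T cell, B cell, and NK and cytotoxic cell lists. The part of these cells in the lower CXCR2, CXCR4 and CCL4 values was not tested.

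CCL4, a chemokine of macrophages and T cells, ranged from 8.57 to 9.55 in TN and from 8.27 to 9.50 in HS pigs. Its difference was -0.18 ± 0.09 (SE), with an adjusted p of 0.350 in limma. IL1RN, the natural antagonist of the IL-1 receptor, lay on the other side of 0, at 0.14 ± 0.07 (SE) and an adjusted p of 0.395 in limma. Its values were 6.99 to 7.46 in TN and 6.92 to 8.05 in HS pigs, and 6 of the 18 HS pigs were under their breed's TN mean. The 16 interleukins had a median difference of -0.01 and the 13 interleukin receptor chains a median of 0.00, with no member of either group at an unadjusted p under 0.05.

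**Figure D2:**
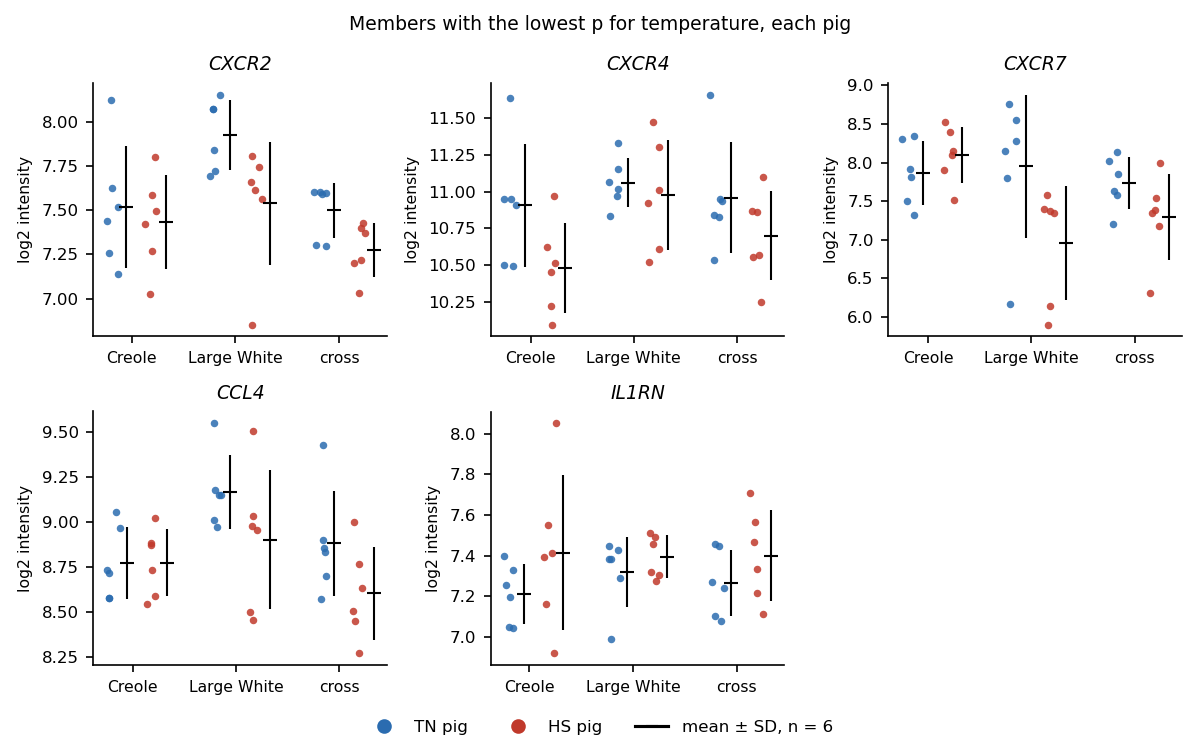
Log2 intensity of the 5 members with the lowest p for temperature in each pig, by breed and condition, with the mean and SD of 6 pigs. The TN and HS pigs overlap in every panel, and CXCR7 is low in 3 Large White pigs and 1 cross pig.

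Genes downstream of the receptors were read from a list of 48 tested genes of JAK-STAT, NF-kB and related signalling. In HS pigs 3 of them rose and 0 fell, beside 0.39% and 0.496% of all probes. NFKBIZ, a nuclear regulator of NF-kB target genes, rose by 0.42 ± 0.09 (SE) with an adjusted p of 0.0220 in limma. STAT5A, a transcription factor used by many cytokine receptors, rose by 0.25 ± 0.06 (SE, adjusted p of 0.0451 in limma), and TRAF3IP2, the adaptor of IL-17 receptors, by 0.21 ± 0.05 (SE, adjusted p of 0.0432 in limma). The median of the list was -0.01. Among 47 tested cytokine genes outside the set, TNFSF10, the death ligand TRAIL, was the single call for temperature, with a rise of 0.30 ± 0.07 (SE) and an adjusted p of 0.0370 in limma. Whether these genes and the ligands and receptors differ in their response was not tested.

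Breed was the second comparison. In the F test over the 3 breeds 6 members passed an FDR of 0.05 in limma, and 10.4% of all probes did, so their share was near that of the array. They were IL1R1, CXCR6, CCR1, IL7, IL4R and CXCR2. Between Large White and Creole pigs 4 members passed, beside 11.3% of all probes: IL4R and IL2RG were higher (5.89% of all probes) and IL1R1 and CCL27 lower (5.38%) in Large White pigs. Without the 2 HS pigs named above the counts were 5 and 3, and without all 5 pigs 4 (IL1R1, CXCR6, CCR1 and IL7) and 2 (IL1R1 and CCL27). With any probe of a gene allowed they were 8 and 6, through CXCL12 and IL15. A dimmer probe of CXCL12 gave a Large White minus Creole difference of -0.68 (adjusted p of 0.0187, and 0.0494 in the F test of limma). Another dimmer probe gave -0.56 (0.0413 and 0.0670), against -0.37 at the brightest (0.162 and 0.310). The 4 tested probes of CXCL12 lay between -0.68 and -0.32. For IL15, which sustains NK and memory T cells, a dimmer probe gave 0.59 (0.0265 and 0.0485) against 0.22 at the brightest (0.406 and 0.488).

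IL1R1, the signalling receptor of IL-1, had the lowest p. It ranged from 5.97 to 6.48 in Creole pigs (median 6.23, n = 12), from 5.79 to 6.29 in Large White pigs (median 5.90) and from 5.92 to 6.31 in the cross (median 6.14). The 6 TN pigs of the Large White breed lay at 5.95 or below, while the ranges of the breeds overlapped. The Large White minus Creole difference was -0.27 ± 0.06 (SE) with an adjusted p of 0.00371 in limma, and it lay between -0.49 and -0.21 on the 4 slides of 8 arrays. The gene, on chromosome 3 of Sscrofa11.1 (chr3:52192912-52334734), had no other probe tested. The call held when any 1 pig was left out.

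IL4R, the chain shared by the IL-4 and IL-13 receptors, ranged from 10.38 to 10.71 in Creole pigs, from 10.53 to 10.96 in Large White pigs and from 10.34 to 10.74 in the cross. The Large White minus Creole difference was 0.17 ± 0.05 (SE, adjusted p of 0.0348 in limma), and its second probe gave 0.09. IL2RG, the gamma chain of the receptors for IL-2, IL-4, IL-7, IL-15 and IL-21, lies on the X chromosome (chrX:57143568-57151242), and 1 of its 3 probes passed the filter. It ranged from 5.68 to 6.30 in Creole and from 5.80 to 6.57 in Large White pigs, with medians of 6.17 and 6.38, and differed by 0.24 ± 0.08 (SE, adjusted p of 0.0465 in limma). CCL27, a skin-homing chemokine that binds CCR10, ranged from 5.94 to 7.69 in Creole, from 5.54 to 6.60 in Large White and from 5.87 to 7.22 in cross pigs. Its difference of -0.54 ± 0.18 (SE, adjusted p of 0.0431 in limma) came with -0.44 at its second probe. All 3 calls were near the threshold. Between the breeds IL4R lost its call when any 1 of 8 pigs was left out, CCL27 with any 1 of 14 and IL2RG with any 1 of 20 of the 36, and in the F test IL4R lost it with any 1 of 22.

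**Figure D3:**
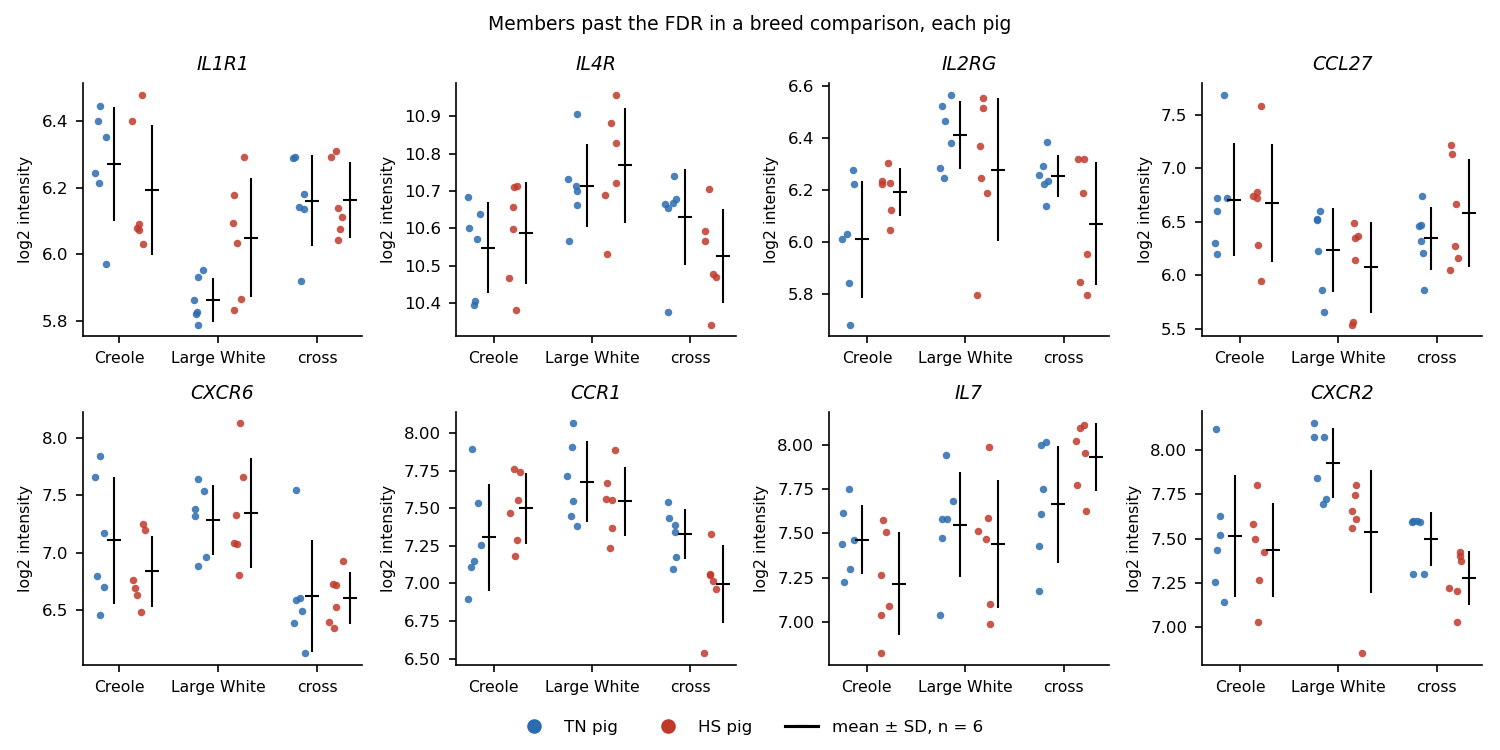
Log2 intensity of the 8 members that passed the FDR in the breed F test or between Large White and Creole pigs, in each pig, with the mean and SD of 6 pigs per group. IL1R1 is low in the TN pigs of the Large White breed, CXCR6 is low in the cross, and CCR1 is low in the HS pigs of the cross.

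For CXCR6, CCR1 and IL7 in the F test, the cross had the lowest or the highest median. CXCR6, the receptor of CXCL16 on tissue-resident T and NK cells, ranged from 6.12 to 7.55 in the cross (median 6.56), from 6.46 to 7.85 in Creole (median 6.78) and from 6.81 to 8.13 in Large White pigs (median 7.33). CCR1, a receptor of CCL5 and related ligands on monocytes, had medians of 7.14 in the cross, 7.38 in Creole and 7.56 in Large White pigs. By temperature its medians were 7.37 in TN and 7.04 in HS pigs of the cross, 7.20 and 7.51 in Creole and 7.63 and 7.56 in Large White pigs, so the cross was the lowest in HS but not in TN. IL7, the survival factor of lymphocytes, was at 7.17 to 8.11 in the cross, 6.82 to 7.75 in Creole and 6.99 to 7.99 in Large White pigs. The breeds overlapped for each of them, and the adjusted p of the F test in limma was 0.00907 for CXCR6, 0.0166 for CCR1 and 0.0230 for IL7.

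The difference of the cross from the mean of both parent breeds was tested on its own, and 0 members passed the FDR in limma, beside 0.409% of all probes; 11 members had an unadjusted p under 0.05, beside 11% of all probes. It was -0.53 ± 0.14 (SE) for CXCR6 (adjusted p of 0.0776 in limma), -0.34 ± 0.09 (SE) for CCR1 (0.0985) and 0.38 ± 0.10 (SE) for IL7 (0.0919), and each kept its sign on the 4 slides of 8 arrays. IL16, a T cell attractant cleaved from a larger protein, and CCR2, the receptor of CCL2 on monocytes, had differences of -0.29 ± 0.09 and -0.17 ± 0.06 (SE), with adjusted p of 0.135 and 0.247 in limma. The second probe of CXCR6 gave -0.41, that of CCR1 -0.25 and that of IL7 0.10. In the F test of limma the second probe had an adjusted p of 0.0131 for CXCR6, but 0.269 for CCR1, 0.590 for IL7 and 0.384 for IL4R, so these 3 calls rest on the brightest probe. For IL7 the 2 probes had opposite signs between Large White and Creole pigs, at 0.16 and -0.15. CXCR2, at an adjusted p of 0.0490 in the F test of limma, had medians of 7.47, 7.73 and 7.39 in Creole, Large White and cross pigs, and it lost its call when any 1 of 30 of the 36 pigs was left out.

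Macrophage markers also differed between breeds. Of 11 tested genes 7 passed the breed F test, beside 10.4% of all probes: C1QA, C1QB, C1QC, CD163, CSF1R, MRC1 and LYZ. They did not all run the same way, since C1QA and C1QC were higher in Large White than in Creole pigs (0.52 and 0.49, adjusted p of 0.0181 and 0.0253 in limma) and CSF1R lower (-0.29, adjusted p of 0.0421). The mean log2 level of the macrophage list had a median of 10.80 in Large White (10.41 to 11.17), 10.62 in Creole (10.24 to 11.19) and 10.45 in cross pigs (10.07 to 10.79). Of 8 tested T cell genes 1 passed, a share near that of all probes. It was CD3D, with a Large White minus Creole difference of 0.59, and the level of that list had medians of 9.44, 9.13 and 9.08 in Large White, Creole and cross pigs, over ranges of 9.04 to 9.78, 8.78 to 9.47 and 8.93 to 9.41. CD4 and CD8B were not among the probes tested. Of 7 adipocyte genes 4 passed the F test, ADIPOQ, FABP4 and PLIN1 with Large White minus Creole differences of -1.62, -1.33 and -0.90 and LPL with 0.91. Of 6 genes of the medulla 3 passed, CHGA, CHGB and SCG2, all higher in Large White pigs (0.16, 0.53 and 1.03). Of the other lists, the breed F test called 2 of 9 cortex genes, 1 of 8 B cell, 1 of 6 neutrophil, 1 of 7 endothelial, 0 of 6 NK and cytotoxic cell and 0 of 4 red blood cell genes. Beside S100A8, temperature called NR5A1 alone among the marker genes, a regulator of steroid synthesis that fell by 0.25 on the log2 scale (adjusted p of 0.0254 in limma). The part of cell makeup in the breed differences of the members was not tested.

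Among the 47 cytokine genes outside the set 10 passed the breed F test, beside 10.4% of all probes. They include CSF1R, already counted with the macrophage genes, and the chemokine-binding receptor ACKR1, also named DARC, whose dimmer probe did not pass (adjusted p of 0.309 in limma). KIT, the receptor of stem cell factor, had a Large White minus Creole difference of 1.69, and the receptor chains of interferon gamma were lower in Large White pigs, by -0.36 for IFNGR1 and -0.44 for IFNGR2. Of the 48 signalling genes 2 passed, a share below that of all probes: SOCS2, an inhibitor of cytokine signalling, differed by 0.24 and TRAF6, an adaptor of IL-1 receptors, by -0.49.

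The response to temperature was then compared between breeds. In the F test of the interaction 0 members passed the FDR in limma, as did 0 of all 45943 probes (0%), and 6 members had an unadjusted p under 0.05, beside 4.21% of all probes. The members with the lowest p were CXCL12, CXCL2, CXCR7, CCL16 and CCR1, each with an adjusted p of 0.982 in limma. CXCL12, a stromal chemokine of haematopoietic niches, had HS minus TN differences of -0.24 in Creole, -0.01 in Large White and 0.59 in cross pigs, each with an SE of 0.22. CXCR7 was at 0.23 in Creole, -0.99 in Large White and -0.45 in cross pigs, each with an SE of 0.33, and CXCL2, a neutrophil chemokine, was at -0.33, 0.34 and 0.54 with an SE of 0.24. None of these within-breed values passed the FDR.

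Pigs of the same group differed widely in several members. The median SD within groups was 0.249 for the 62 members and 0.177 for all probes tested, and 15 members lay above 0.352, the 90th percentile of all probes. The share of the variance that lay between groups had a median of 17.9% for a member and 18.6% for a probe, where 14.3% is the mean share that 6 groups of 6 pigs give with no difference between groups. The widest spreads were those of CCL20 (SD 1.19), which attracts cells with CCR6 to mucosal sites, CXCL9 (1.13), an interferon-induced ligand of CXCR3, IL27 (1.03), IL13RA2 (0.797) and CXCL10 (0.617), which is also induced by interferon and binds CXCR3. These 5 were chosen by their spread.

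IL27, a cytokine of antigen-presenting cells, fell into separate ranges. It was between 8.93 and 9.78 in 5 pigs and between 6.10 and 6.64 in the other 31, with no pig between. The 5 pigs were 2 Creole and 3 cross pigs, 2 of them in TN and 3 in HS, on 3 slides. Of the 12 Large White pigs 0 were among them. In the sample titles these 5 pigs carry consecutive sample numbers, a run that crosses breed and temperature. The split therefore cannot be told apart from the order or handling of the samples. The gene had 1 probe, well above background on all 36 arrays. Because the split was seen in the values, no test was made of it.

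CXCL9 ranged from 6.54 to 9.76 in Creole TN pigs, 7.53 to 10.77 in Creole HS pigs, 8.03 to 10.40 in Large White TN pigs, 8.05 to 11.23 in Large White HS pigs, 7.44 to 10.20 in cross TN pigs and 6.99 to 9.66 in cross HS pigs. All 6 groups overlapped. The lowest Large White pig (8.03) lay above the medians of the Creole TN pigs (7.57) and the cross HS pigs (7.56). It lay below those of the Creole HS pigs (8.23) and the cross TN pigs (8.05). The Large White minus Creole difference of 0.97 ± 0.44 (SE) was the largest in size of the 62 members. Its adjusted p was 0.165 in limma, and that of the breed F test of limma was 0.0980. CXCL10 spanned 11.16 to 13.63 and CCL20 5.52 to 10.70 over the 36 pigs.

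**Figure D4:**
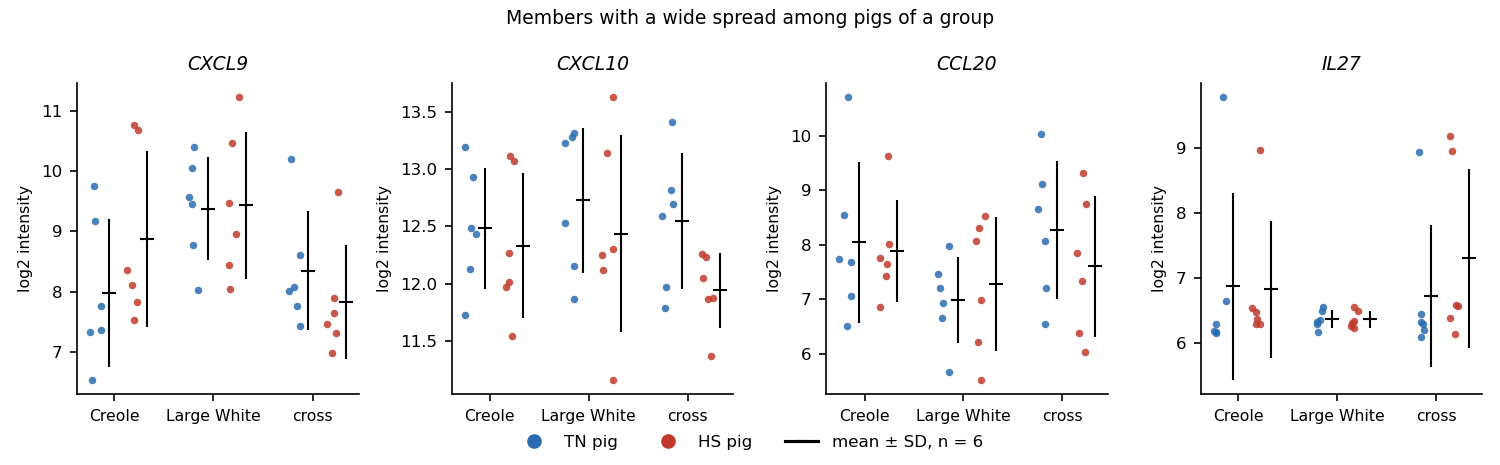
Log2 intensity of CXCL9, CXCL10, CCL20 and IL27 in each pig, by breed and condition, with the mean and SD of 6 pigs. Pigs of the same group lie far apart, the Large White pigs are all above 8 for CXCL9, and 5 Creole or cross pigs stand above all others for IL27.

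Ligands were set against their known receptors across the 36 pigs, as deviations from the mean of each breed and temperature group. The list also held pairs of receptor chains, such as IL10RA with IL10RB and IL6R with IL6ST, and IL1B with its antagonist IL1RN. Of 51 listed pairs 23 had both members in the set, and 17 correlated positively, with a median r of 0.11. By a permutation test within groups, two-sided and adjusted over the 23 pairs, CCL19 and its receptor CCR7, which guide T cells and dendritic cells into lymph nodes, passed an FDR of 0.05 (r = 0.55, p = 0.00087, adjusted p = 0.0200; rho = 0.50, p = 0.00329, adjusted p = 0.0373). Without the 2 pigs farthest from the median of CCL19 r was 0.54. Within the 4 slides of 8 arrays r was -0.39, 0.78, 0.16 and 0.66, and with slide means removed as well it was 0.39 with an adjusted p of 0.134 by the permutation test, so the relation did not hold in each slide.

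A wider view of how the members varied together took all 1830 pairs of the 61 members other than IL27, a step added after the values were seen. Of these, 35 passed an FDR of 0.05 by the permutation test on r and all 35 were positive, of which 17 also passed on rho. With slide means also removed 48 passed, 46 of them positive, and 26 passed on r both with and without the slide means. CXCL9 was in 10 of the 26. It correlated with CCL4 (r = 0.72, rho = 0.67), CCL5 (r = 0.71, rho = 0.65), CXCL13 (r = 0.69, rho = 0.65), CCR1 (r = 0.68, rho = 0.72), CXCL10 (r = 0.68, rho = 0.64) and CXCR6 (r = 0.67, rho = 0.74), with adjusted p between 0.00915 and 0.0194 for r and between 0.00915 and 0.0301 for rho in the permutation test. Without the 2 pigs farthest from the median, r stayed between 0.62 and 0.69 for these 6, with the ligand or receptor that comes first in the alphabet on the x axis. Within slides it was between 0.68 and 0.80 for CXCL10, 0.53 and 0.80 for CCR1, and 0.26 and 0.86 for CXCR6. Arrays share their normalization, and pigs share litters that are not given here, so these 36 points may be less independent than the test takes them to be.

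CXCL9 also correlated with the leukocyte marker lists across pigs. It was chosen after its spread and its pairs were seen, so the p-values are adjusted over all 305 relations of 61 members with 5 lists, of which 50 passed an FDR of 0.05, 47 of them positive. Its r with the mean level of the T cell list was 0.73 (rho = 0.72, permutation p = 1e-05, adjusted p = 0.000436), with the NK and cytotoxic cell list 0.76 (rho = 0.72, permutation p = 1e-05, adjusted p = 0.000436) and with the macrophage list 0.65 (rho = 0.67, permutation p = 7e-05, adjusted p = 0.00119). A p of 1e-05 is the smallest that the permutations can give. By size of r CXCL9 ranked 3, 1 and 4 among the members for these lists. Without the 2 pigs farthest from the median of CXCL9 the 3 values were 0.70, 0.75 and 0.65, and within slides the T cell value was between 0.73 and 0.93. The B cell list gave 0.32 (permutation p = 0.0823, adjusted p = 0.302) and the neutrophil list -0.39 (permutation p = 0.0214, adjusted p = 0.111), with within-slide values from -0.68 to 0.05 for the latter. Whether the number of lymphocytes in the gland sets these relations was not tested.

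The pair with the highest r of all did not hold within slides. CCL17, a ligand of CCR4, and CXCL16, the ligand of CXCR6, had r = 0.76 and rho = 0.76 over the 36 pigs (permutation p = 1e-05, adjusted p = 0.00915), but within slides of 8 arrays r was between -0.25 and 0.17, and with slide means removed it was -0.16.

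**Figure D5:**
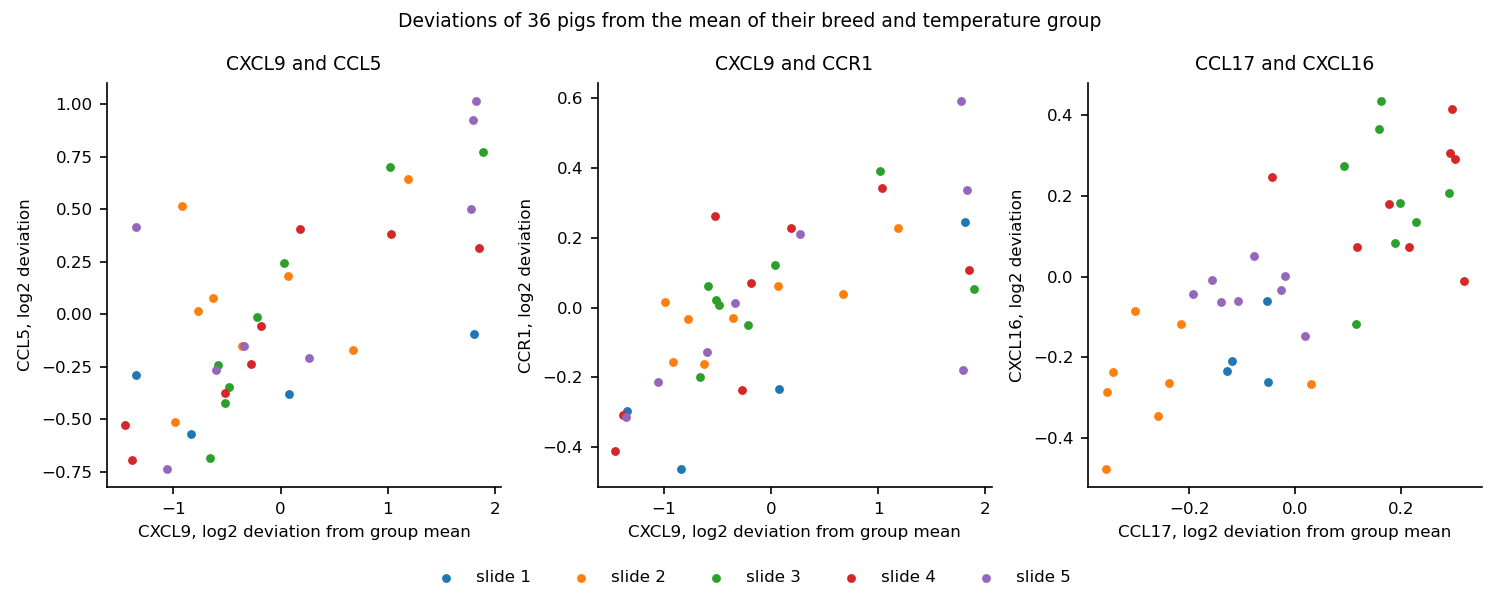
Deviation of each of the 36 pigs from the mean of its breed and temperature group, on the log2 scale, for CXCL9 against CCL5, CXCL9 against CCR1 and CCL17 against CXCL16, coloured by slide. The first 2 relations are seen within slides, whereas in the third the slides form separate clusters with no slope inside them.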

How the data were processed

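RNA of the adrenal glands of 36 pigs was hybridised to 1-colour Agilent arrays, 1 array per pig on 5 slides. The authors scanned the arrays with Agilent Feature Extraction 10.10.1.1 and deposited each spot's intensity without normalization across arrays. The authors also deposited a table of quantile-normalized log2 values of 45348 probes, which chose the probe of each gene and served as an alternative, with 0 columns from other samples.

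The median pixel intensity was quantile normalized over the 36 arrays and turned to log2 without control spots and without 136 spots that the scanner software called outliers. The filter kept probes well above background in 9 or more of the 18 TN arrays or of the 18 HS arrays (45943, of which 89 had a missing value; no member had one, and 0 member spots were saturated). Models were fitted with limma 3.58.1 (R 4.3.3), and the script was tested on simulated data. They held breed and temperature, with an F test of the breeds, contrasts between them, and an F test of the interaction, with Benjamini-Hochberg adjustment over all 45943 probes and an FDR of 0.05. Correlations used 100000 permutations within groups.

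The members and the gene lists were chosen with earlier results of these data known. Members named for a comparison are those past the FDR and, up to 5, those with the next lowest p. Gene positions come from RefSeq on Sscrofa11.1. Arrays of 1 group are separate pigs, and the number of arrays limits the precision. The labels give no pen, litter, parents or day of slaughter, and the fits hold none of them. Genes named by an accession alone were not added to the set. Results for 1 member are not reported here by name. Other tissues were not analysed here.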

Additional observations from a re-analysis of the deposited data

Results flagged for a closer look

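Single pigs stood apart from the other 5 of their group in 13 of 132 groups (22 members in 6 groups each), by the gap to the nearest pig against the range of the group. Chance flags about 1 in 20 groups. For the 17 members named in the comparisons 9 of 102 groups were flagged, where chance gives 5.1. The 5 other members were chosen for their wide spread and gave 4 of 30, to which this rate does not apply. The values are on the log2 scale.

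IL27 was at 9.78 in Creole TN replicate 6, 8.97 in Creole HS replicate 1 and 8.93 in cross TN replicate 5, each above a next value of at most 6.64. CXCL9 was at 9.66 in cross HS replicate 6, above a next value of 7.89.

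Among the genes with the lowest p for temperature, CXCR2 was low at 6.85 in Large White HS replicate 4, CXCR7 was low at 6.17 and IL1RN low at 6.99 in Large White TN replicate 5, CXCR4 was high at 11.66 in cross TN replicate 2, and CCL4 was high at 9.55 in Large White TN replicate 4. Leaving out any 1 pig kept the CXCR2 difference between -0.26 and -0.18.

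Among the genes of the breed comparisons, CXCR6 was high at 7.55 in cross TN replicate 4, IL4R low at 10.38 in cross TN replicate 6, CCL27 high at 7.69 in Creole TN replicate 6 and CCR2 low at 6.64 in Creole TN replicate 2. Without cross TN replicate 4, CXCR6 passed the FDR for the cross against its parents, with an adjusted p of 0.0224 in limma.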

How the results depend on the processing

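The count of 0 members for temperature and for the interaction was the same under every alternative run, which were the authors' values, normexp, the 75th percentile of the processed signal, 3 other filters, the slide as a block, another variance prior, the mean or any of a gene's probes, each slide and each pig left out, the 2 HS pigs or all 5 pigs left out and, for temperature, no breed term. For the breed F test the 6 members became 3 with the mean of a gene's probes, and 3, 2 and 1 without slide 1, 2 and 3; any probe of a gene gave 8, the slide as a block 7, and leaving out 1 pig between 4 and 8. The 4 members between Large White and Creole pigs became 2 without all 5 pigs that lay on the side of the other temperature, 2 with the 75th percentile, 2 without a filter, and 2, 1, 1 and 2 without slides 1 to 4; any probe of a gene gave 6, the slide as a block 5, and leaving out 1 pig between 1 and 5. IL1R1 kept its call between these breeds in all but 1 of these settings, without slide 4, with an adjusted p of 0.065 in limma. The 0 members for the cross became 2 (CXCR6 and IL7) without slide 4 and 1 without cross TN replicate 3 (IL7), Creole TN replicate 5 (CCR1) or cross TN replicate 4 (CXCR6), so that the range over the pigs left out was 0 to 1. Leaving out a slide also removes pigs; the cause of the changes was not tested. For the 23 listed pairs with both members in the set, 1 passed by r, 4 by rho, 4 without the 2 farthest pigs and 2 with slide means removed. Of the temperature, Large White minus Creole and cross differences, 5 members each, none changed sign under any alternative run, while the within-breed differences and those of the gene lists were not recomputed, and within the 4 slides of 8 arrays the 4 differences called between Large White and Creole pigs kept theirs. No paired analysis was possible because the replicate numbers follow the order of the deposited samples. Signal limits the 9 members not well above background on every array, since the stricter filter kept 53.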
